A study of Mus musculus with 6 samples.

Results

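The genes described here are 9 genes of homologous recombination and of the Fanconi pathway, Brca1, Brca2, Fanca, Fancd2, Fanci, Blm, Palb2, Exo1 and Bard1. They were taken by symbol from a table of 17469 mouse genes, all 9 were found once, and all 9 had enough counts to be tested, among 12701 tested genes. RNA-seq was measured in tdTomato+ cells, called OB (osteoblast) progenitors by the study, that were sorted from bone marrow stromal cell (BMSC) cultures of 6-month-old mice. Of the 6 libraries, 3 came from OCN-Cre;Ai9 (control) mice and 3 from TgAPPsweOCN;Ai9 mice, called control and APPswe libraries from here on. Both genotypes carried OCN-Cre, which places Cre under the osteocalcin promoter, and Ai9, a reporter that gives tdTomato once Cre has acted. The TgAPPsweOCN;Ai9 mice also carried human APPswe (amyloid precursor protein bearing the Swedish mutation) behind a CAG promoter and a stop cassette that Cre removes. Sorted cells were therefore those in which Cre had acted at some time, after 7 days of culture, a passage and 3 further days. How many mice stood behind a library is not given in the sources used here. The p-values set the difference between genotypes against the spread between these libraries, which may be technical.

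Homologous recombination repairs a broken DNA double strand by copying the intact sister chromatid, and so works mainly in cells that have replicated their DNA. The broken ends are first cut back to single strands, BRCA1, PALB2 and BRCA2 prepare these for the exchange of strands, and the joined molecules are separated afterwards. The Fanconi pathway removes crosslinks between the strands at stalled replication forks: a core complex attaches ubiquitin to the FANCD2-FANCI pair, nucleases cut the crosslink out, and homologous recombination completes the repair. Many genes of both pathways are transcribed in a cell-cycle-dependent way.

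All 9 genes were lower in the APPswe libraries. Each passed the quasi-likelihood test of edgeR, Benjamini-Hochberg adjusted over all tested genes (adjusted p from 9.08e-05 for Fanci to 0.00673 for Brca1). Genes called lowered, with an adjusted p at or below 0.05, made up 31.5% of all tested genes, and genes called raised made up 32.5%, of which none was among the 9. Each of the 9 was also lower in TMM-scaled CPM, counts over library sizes that edgeR's TMM factors adjust, in every APPswe library than in every control library, against 34.9% of all tested genes. At the stricter threshold that also asks for a log2 fold change of -1 or below, 4 of the 9 were down-regulated (Fanci, Exo1, Fanca and Fancd2), against 9.2% of all tested genes. The median log2 fold change of the 9 was -0.84, beside -0.02 over all tested genes. Without replicate 1 of the APPswe libraries only Fanci and Exo1 stayed below -1, at -1.24 and -1.07, while all 9 still passed the adjusted p. In RNA from a sorted population, fewer cells of a type and less RNA per cell cannot be told apart.

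The APPswe libraries held between 21677461 and 22037840 estimated counts and the control libraries between 19340810 and 19801060. A level of 3 counts, taken as the smallest detectable, was 0.136 to 0.155 CPM of the unadjusted library totals, and the 9 genes held between 44 and 447 estimated counts a library. Scaling by library size alone, in place of edgeR's TMM scaling, which aligns the bulk of the genes between libraries, moved the median log2 fold change over the tested genes from -0.02 to -0.23. FPKM (fragments per length of transcript and total fragments) carries that shift too, so FPKM levels below fell further than the log2 fold changes, which are on the TMM scale. App, whose row does not separate mouse from human reads, measured 281.1, 274.95 and 280.92 FPKM in the control libraries and 325.21, 331.95 and 332.86 FPKM in the APPswe libraries. Its log2 fold change was 0.45 ± 0.05 (SE, edgeR adjusted p = 7.87e-05), and 0.24 when scaled by library size alone (adjusted p = 0.00229).

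Markers of myeloid cells far exceeded those of the osteoblast lineage by which the sorted cells are labelled. The 15 myeloid markers, led by Lyz2 (lysozyme of macrophages and neutrophils), summed to 18408 to 19156 FPKM in the control libraries and 15536 to 19284 FPKM in the APPswe libraries. Of these markers 6 were lowered (40%) and 7 were raised, beside 31.5% and 32.5% of all tested genes. Single myeloid markers moved far in both directions under that sum, with 4 down-regulated and 5 up-regulated past a log2 fold change of 1. Mrc1, Cx3cr1 and Csf1r, receptors of macrophages and monocytes, had log2 fold changes of -2.38, -2.05 and -1.49, while Aif1, Adgre1 and Fcgr1 had 2.04, 1.89 and 1.30, and Lyz2 had -0.16 (edgeR adjusted p = 0.42). The 15 stromal and osteoblast markers summed to 1122 to 1211 FPKM and 639 to 893 FPKM, with 4 of 14 tested genes lowered, below the share of 31.5% over all tested genes, and 2 raised. Spp1 (osteopontin) made up most of that sum, at 944 ± 67.3 FPKM in the control and 561 ± 98.9 FPKM in the APPswe libraries (SD, n = 3 each). The 4 lowered genes were Sp7, Pdgfrb, Spp1 and Sparc, with log2 fold changes of -0.78, -0.55, -0.54 and -0.39. Alpl was raised by 0.57 (edgeR adjusted p = 0.00139). Runx2, Col1a1 and Col1a2 had -0.14, -0.17 and -0.12 (edgeR adjusted p = 0.43, 0.26 and 0.37). Scaled by library size alone, Alpl had 0.36 and still passed, and Col1a1 and Col1a2 passed with -0.38 and -0.34. Lum, which encodes the matrix protein lumican, was raised, from 0, 0.03 and 0 FPKM in the control libraries to 0.63, 0.80 and 0.87 FPKM in the APPswe libraries (edgeR adjusted p = 2.66e-05). Bglap, which encodes osteocalcin, was below the testing filter and measured 1.25, 0.97 and 0.35 FPKM in the control libraries and 0.49, 0.33 and 0 FPKM in the APPswe libraries. The 7 lymphoid markers found summed to 3.72 to 4.66 FPKM and 1.06 to 2.50 FPKM, where Cd79a was listed at 0 in all control libraries. The part of these cell types in the falls of the 9 genes was not tested.

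**Figure D1:**
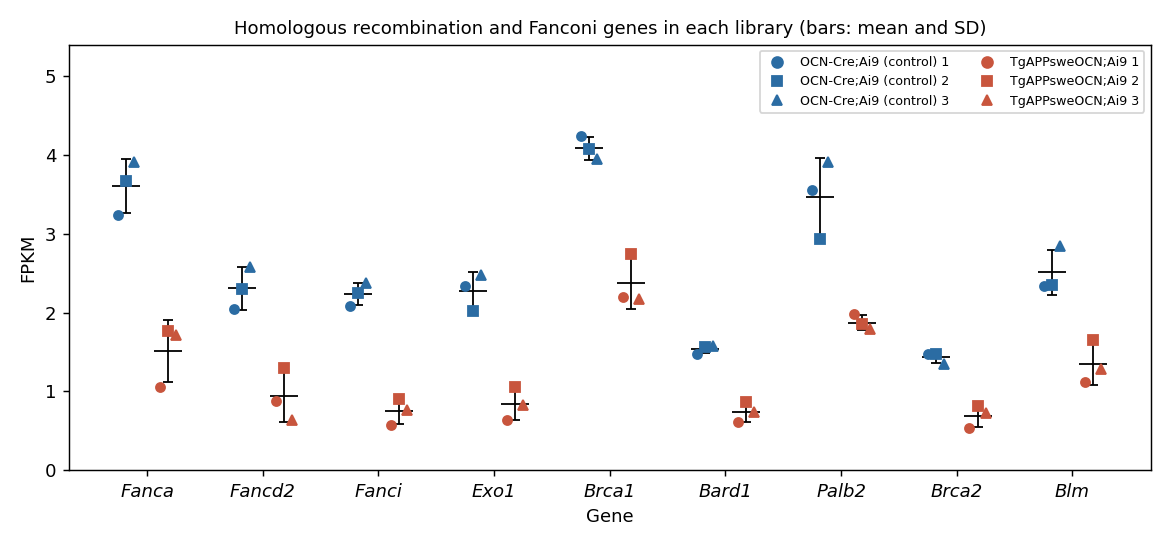
FPKM of the 9 genes in each library, with control libraries in blue, APPswe libraries in red, marker shapes for libraries 1 to 3, and bars for mean and SD. For each gene the 3 APPswe libraries lie below the 3 control libraries, from 0.53 to 2.74 FPKM against 1.35 to 4.24 FPKM.

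The Fanconi core was represented by Fanca, a scaffold subunit of the ubiquitin ligase complex. Fanca lies on the minus strand at chr8:123268300-123318576 (mm10, GENCODE M21). Fanca measured 3.24, 3.67 and 3.91 FPKM in control libraries 1 to 3 and 1.06, 1.77 and 1.71 FPKM in APPswe libraries 1 to 3. The groups did not overlap, and APPswe library 1 lay well below the other two. Its log2 fold change was -1.05 ± 0.17 (SE, edgeR adjusted p = 0.000719), or 2.07-fold lower. Its estimated counts were fractional in all 6 libraries, so part of its reads was shared with other annotated sequence and its level is uncertain to that extent.

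Fancd2 and Fanci encode the pair of proteins that the core complex modifies and that clamps onto DNA. Fancd2 (plus strand, chr6:113531682-113597017) measured 2.04, 2.30 and 2.58 FPKM in the control libraries and 0.88, 1.30 and 0.64 FPKM in the APPswe libraries. Fanci (plus strand, chr7:79391929-79450264) measured 2.09, 2.25 and 2.37 FPKM in the control libraries and 0.58, 0.90 and 0.77 FPKM in the APPswe libraries. Neither gene overlapped between genotypes, but their APPswe libraries were ordered differently: library 3 was the lowest for Fancd2 and library 1 for Fanci. Fanci had the largest log2 fold change of the 9, -1.37 ± 0.16 (SE, edgeR adjusted p = 9.08e-05, 2.59-fold lower). Fancd2 fell by 1.04 ± 0.21 (SE, edgeR adjusted p = 0.00262), the widest error among the 9. Estimated counts were fractional in 6 libraries for Fanci and in 2 for Fancd2. The log2 ratio of Fancd2 to Fanci within a library was 0.04 ± 0.08 (SD, n = 3) in the control libraries and 0.29 ± 0.48 (SD, n = 3) in the APPswe libraries, and the groups overlapped (exact two-sided permutation p = 0.4, 0.67 after adjustment over 5 ratios). With 3 libraries against 3 the smallest p this test can give is 0.1.

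Exo1 encodes an exonuclease that cuts back the 5′ strand of a broken end and also acts in mismatch repair. Exo1 (plus strand, chr1:175880581-175913489) measured 2.34, 2.02 and 2.48 FPKM in the control libraries and 0.64, 1.05 and 0.83 FPKM in the APPswe libraries. The highest APPswe library stayed below the lowest control library. The log2 fold change was -1.24 ± 0.19 (SE, edgeR adjusted p = 0.000541), or 2.35-fold lower, on 44 to 153 counts a library, the lowest counts of the 9.

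Brca1 and Bard1 encode the 2 RING proteins of the ligase that opens the BRCA1 branch of repair. Brca1 (minus strand, chr11:101488764-101551955) measured 4.24, 4.07 and 3.95 FPKM in the control libraries and 2.2, 2.74 and 2.17 FPKM in the APPswe libraries. Bard1 (minus strand, chr1:71027498-71103146) measured 1.48, 1.56 and 1.58 FPKM in the control libraries and 0.61, 0.87 and 0.74 FPKM in the APPswe libraries. Both genes separated the genotypes, and APPswe library 2 was the highest of its group for each. Brca1 had the smallest log2 fold change of the 9, -0.48 ± 0.12 (SE, edgeR adjusted p = 0.00673, 1.39-fold lower), and Bard1 had -0.83 ± 0.15 (SE, edgeR adjusted p = 0.0012). Within libraries the log2 ratio of Brca1 to Bard1 rose from 1.41 ± 0.10 to 1.69 ± 0.15 (SD, n = 3 each) with no overlap, a difference of 0.28 at the smallest p the exact permutation test allows (0.1, adjusted 0.25). Control library 3 gave the lowest control FPKM of Brca1 and the highest count, 447, so its FPKM and count orders differ.

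Palb2 encodes the protein that joins BRCA1 to BRCA2, and Brca2 a large protein needed for the exchange of strands. Palb2 (minus strand, chr7:122107262-122132985) measured 3.55, 2.93 and 3.91 FPKM in the control libraries and 1.98, 1.85 and 1.79 FPKM in the APPswe libraries. Brca2 (plus strand, chr5:150522630-150570329) measured 1.48, 1.48 and 1.35 FPKM in the control libraries and 0.53, 0.82 and 0.72 FPKM in the APPswe libraries. Palb2 was the steadiest gene among the APPswe libraries and the most variable among the control libraries (SD 0.10 and 0.50 FPKM), and it was the exception to APPswe library 2 being the highest. The log2 fold changes were -0.53 ± 0.12 for Palb2 (SE, edgeR adjusted p = 0.00446) and -0.84 ± 0.14 for Brca2 (SE, edgeR adjusted p = 0.000932). Their log2 ratio within libraries, Brca2 to Palb2, was -1.26 ± 0.27 and -1.46 ± 0.39 (SD, n = 3 each), and the groups overlapped (exact permutation p = 0.6, adjusted 0.75).

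Blm encodes a RecQ helicase that unwinds resected ends and, with TOP3A and RMI proteins, dissolves joined molecules. Blm (minus strand, chr7:80454733-80535119) measured 2.34, 2.35 and 2.84 FPKM in the control libraries and 1.12, 1.65 and 1.29 FPKM in the APPswe libraries. No APPswe library reached the lowest control library, and the log2 fold change was -0.68 ± 0.16 (SE, edgeR adjusted p = 0.00499). Blm and Exo1 stood at nearly the same FPKM in the control libraries, and Blm lay above Exo1 in each APPswe library. The log2 ratio of Blm to Exo1 went from 0.14 ± 0.12 to 0.70 ± 0.09 (SD, n = 3 each), a difference of 0.56 without overlap (exact permutation p = 0.1, adjusted 0.25).

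**Figure D2:**
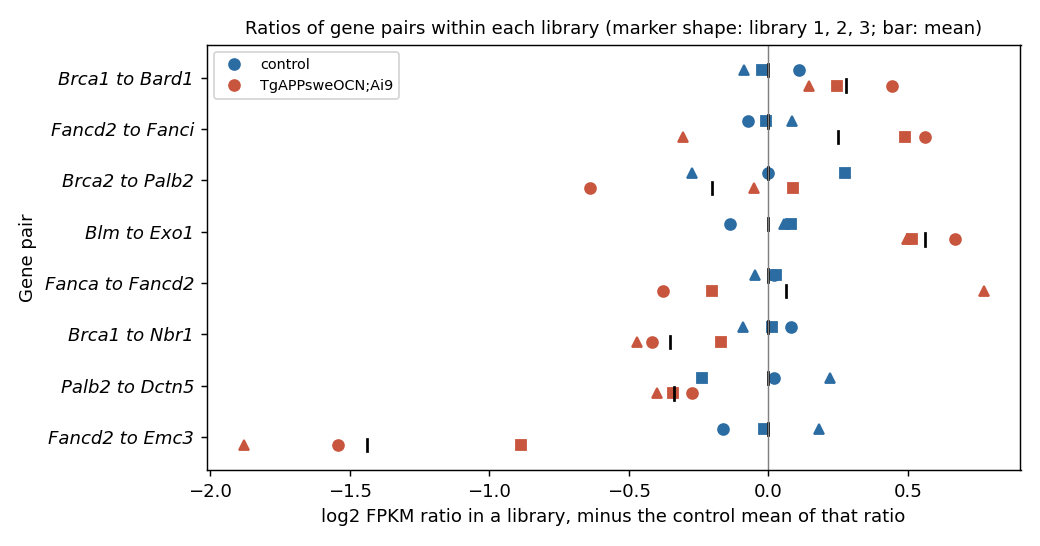
Log2 FPKM ratios of 8 gene pairs within each library (x axis, less the control mean of the pair), with control libraries in blue, APPswe libraries in red, marker shapes for libraries 1 to 3 and bars for means. Blm to Exo1 lies apart by 0.56 and Brca1 to Bard1 by 0.28, while Fancd2 to Fanci, Brca2 to Palb2 and Fanca to Fancd2 overlap.

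By FPKM the order of the 9 genes was nearly the same in both genotypes. Brca1 was the highest in each, at 4.09 ± 0.15 FPKM (SD, n = 3) in the control and 2.37 ± 0.32 FPKM in the APPswe libraries, apart from the next gene. Fanca and Palb2 exchanged the second and the third place, and overlapped in the control libraries alone. Blm, Fancd2, Exo1 and Fanci followed, each overlapping the next of these 4 in both genotypes, and Bard1 and Brca2 were the lowest and overlapped each other. Of 36 pairs of genes, 3 had 95% intervals of the log2 fold change that lay apart (Fanci from Palb2, Fanci from Brca1, and Exo1 from Brca1). Overlap of intervals is no test of a difference, and no pair was tested on this scale. APPswe library 2 was the highest of its group for 8 genes and library 1 the lowest for 6, and control library 3 was the highest of its group for 7.

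The log2 ratio of Fanca to Fancd2 was 0.65 ± 0.04 (SD, n = 3) in the control libraries, the tightest of the 5 ratios, and 0.71 ± 0.62 in the APPswe libraries (exact permutation p = 1). The spread came from APPswe library 3, where the log2 ratio was 1.42 beside 0.27 and 0.45 in the other two.

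The upstream sequences of 4 of the genes are shown because they lie before the annotated start in both RefSeq and GENCODE, and because those of Brca1 and Palb2 are shared with a gene read in the other direction. Fanca also has such a stretch, which holds none of the motifs searched and is not shown. Promoter windows on GRCm38.p6, from 250 bases before to 50 after a start, were found for 7 of the 9 genes (Bard1, Brca2, Fanci, Blm, Palb2, Fanca and Brca1). That start need not be the first base of the gene in either annotation. The windows were searched on both strands for 4 E2F-type motifs (TTTCCCGC, TTTGGCGC, TTTCGCGC and TTTGCCGC), the TTTGAA of cell cycle homology regions, and CCAAT. No searched motif overlapped another. Capitals mark every such match, written as read on the strand of the named gene, so that ATTGG is CCAAT on the other strand. The stretches are chr1:71103147-71103222 for Bard1, chr7:80535149-80535248 for Blm, chr11:101551956-101552106 for Brca1 and chr7:122132986-122133040 for Palb2, all on the minus strand.
Bard1: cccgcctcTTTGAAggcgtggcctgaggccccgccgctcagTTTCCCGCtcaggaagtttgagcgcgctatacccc
Blm: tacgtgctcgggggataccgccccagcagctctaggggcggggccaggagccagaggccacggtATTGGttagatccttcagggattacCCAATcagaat
Brca1: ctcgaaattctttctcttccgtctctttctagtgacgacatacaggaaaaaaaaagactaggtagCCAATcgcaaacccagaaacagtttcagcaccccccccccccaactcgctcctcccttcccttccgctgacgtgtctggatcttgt
Palb2: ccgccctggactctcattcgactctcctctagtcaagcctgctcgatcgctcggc

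TTTCCCGC was present in the windows of Bard1 and Brca2, 2 of 7, and in 1.07% of the 32851 windows searched. The bases G and C made up 53.7% to 66% of the 7 windows, beside a median of 52.7% over all windows. No comparison with windows of like composition was made. The Brca2 window begins after the RefSeq start of the gene, chr5:150522297, so its match lies within that gene. The other E2F-type motifs were in none of the 7 windows and in 0.514%, 0.323% and 0.441% of all windows, in the order given. TTTGAA was in the Bard1 window and in 17.9% of all windows. CCAAT was in 4 of the 7 windows (Blm, Palb2, Fanca and Brca1) and in 37.4% of all windows. The Blm stretch holds CCAAT on both strands, and the Bard1 stretch holds TTTGAA and TTTCCCGC on the strand of the gene. These matches are descriptions of the sequence and not of binding.

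For 3 of the 9 genes GENCODE M21 places a protein-coding gene on the other strand whose start lies within 1000 bases and which is read away from it, a comparison added after the data were seen. Nbr1, an autophagy receptor, starts 194 bases from Brca1, Dctn5, a dynactin subunit, 56 bases from Palb2, and Emc3, a subunit of the endoplasmic reticulum membrane complex, 30 bases from Fancd2. Nbr1 measured 35.66, 35.92 and 37.44 FPKM in the control libraries and 26.15, 27.42 and 26.72 FPKM in the APPswe libraries (log2 fold change -0.23 ± 0.05 SE, edgeR adjusted p = 0.00334). Dctn5 measured 66.66, 65.81 and 63.90 FPKM in the control libraries and 45.53, 44.62 and 44.88 FPKM in the APPswe libraries (log2 fold change -0.32 ± 0.05 SE, edgeR adjusted p = 0.000813). Emc3 measured 51.92, 52.85 and 51.69 FPKM in the control libraries and 58.26, 54.65 and 53.51 FPKM in the APPswe libraries (log2 fold change 0.31 ± 0.06 SE, edgeR adjusted p = 0.00216), a rise that was 0.09 (adjusted p = 0.18) when scaled by library size alone, where Nbr1 had -0.45 and Dctn5 -0.54. Within libraries the log2 ratio of the repair gene to its neighbour was lower in every APPswe library for all 3 pairs. The ratio fell by 0.35 for Brca1 to Nbr1, by 0.34 for Palb2 to Dctn5 and by 1.44 for Fancd2 to Emc3, each at the smallest exact permutation p (0.1, and 0.1 after adjustment over 3). Fancd2 and Emc3, the closest pair, thus moved in opposite directions on the TMM scale.

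The rest of the 2 pathways was described with lists of their genes, given here without the 9. Over 98 further repair and checkpoint genes, 55 were lowered, 11 were raised and 32 did not pass, with a median log2 fold change of -0.42. Of the genes named from these and the following lists, Slx1b, Eme1, Wdr48, Brip1, Sfr1, Lig3, Trp53bp1 and Ccna2 had fractional counts in all 6 libraries, and Mre11a, Gen1, Recql4 and H2afx in 4 or 5, which leaves their levels uncertain as for Fanca. Of 13 further genes of the Fanconi core and its anchors, 9 were lowered (69.2%) and 1 was raised (median -0.63). Fance, which holds FANCD2 to the core, went from 10.3 ± 0.64 to 4.58 ± 0.14 FPKM (SD, n = 3 each, log2 fold change -0.94, edgeR adjusted p = 2.84e-05). Fancm, the DNA translocase that anchors the core, fell by 0.89, Fancb by 0.75 and Cenps by 0.74 on the log2 scale. Faap24, the partner of FANCM, was raised by 0.60 (edgeR adjusted p = 0.00111), or by 0.39 when scaled by library size alone (adjusted p = 0.013), and Faap20 had 0.10 (adjusted p = 0.42). Of 10 genes around the FANCD2-FANCI pair and the nucleases, 6 were lowered (60%) and 1 was raised (median -0.25). Slx1b, a structure-specific nuclease subunit, fell by 1.2, Fan1 by 0.59 and Eme1 by 0.58, and the scaffold Slx4 had 0.01 (edgeR adjusted p = 0.88). Wdr48, a cofactor of the deubiquitinase of FANCD2, was raised by 0.18 (edgeR adjusted p = 0.0206) but had -0.04 when scaled by library size alone.

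The resection genes did not move one way. Of 6 besides Exo1 and Blm, Dna2, a nuclease and helicase, fell by 1.41 (2.80 ± 0.23 to 0.92 ± 0.12 FPKM, SD, n = 3 each, edgeR adjusted p = 3.19e-05), while 3 were raised. Those were the helicase Wrn with 0.58 (edgeR adjusted p = 0.000497), Rbbp8, which encodes CtIP, with 0.24 (adjusted p = 0.0128), and Rad50, of the complex that first binds the break, with 0.20 (adjusted p = 0.041). Mre11a, its nuclease, had 0.00 (edgeR adjusted p = 0.97). Scaled by library size alone, Wrn had 0.36 and still passed, Rbbp8 had 0.03 and Rad50 -0.01, and neither passed. Of 8 further genes around BRCA1, 2 were lowered, the helicase Brip1 by 0.51 and Abraxas1 by 0.42, and none was raised (median -0.02), with Babam1 at 0.01 (edgeR adjusted p = 0.91). The share lowered, 25%, was below the 31.5% of all tested genes, as was that of the 6 resection genes (16.7%).

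Of 17 genes of strand exchange besides Palb2 and Brca2, 11 were lowered (64.7%) and 2 were raised (median -0.60). Xrcc3, which acts in homologous recombination, fell by 1.59 on 18 to 89 estimated counts, the translocases Rad54l and Rad54b by 1.31 and 1.04, and Hrob, which brings the helicase of MCM8 and MCM9, by 0.98. Xrcc3, Rad54l and Rad54b had fractional counts in all 6 libraries. The small proteins Sfr1 and Sem1, of which SEM1 binds BRCA2 and is also a proteasome subunit, were raised by 0.38 and 0.24, and when scaled by library size alone Sfr1 had 0.17 (edgeR adjusted p = 0.0206) and Sem1 0.02 (adjusted p = 0.68). Of 8 further genes of junction dissolution, 5 were lowered (62.5%) and none was raised (median -0.48). Gen1, Top3a, Recql4 and Rmi1 had -0.86, -0.83, -0.80 and -0.57, and Helq had -0.12 (edgeR adjusted p = 0.52). Top3a and Rmi1 encode the partners of BLM.

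End joining, which reseals breaks without a template, was mixed, with 9 of 18 genes lowered (50%) and 3 raised (median -0.29). Over all tested genes 31.5% were lowered and 32.5% were raised. Xrcc5, which encodes the KU80 subunit that binds broken ends, went from 1.38 ± 0.16 to 2.99 ± 0.55 FPKM (SD, n = 3 each, log2 fold change 1.33, edgeR adjusted p = 0.000176). The ligases Lig3 and Lig4 were raised by 0.88 and 0.41, and Lig4 had 0.20 (adjusted p = 0.11) when scaled by library size alone. Shld1 of the shieldin complex fell by 0.95 and Polq, the polymerase of microhomology-mediated joining, by 0.78, and Trp53bp1 had -0.01 (edgeR adjusted p = 0.91). Of 18 damage checkpoint genes, 12 were lowered (66.7%) and 1, Rad17, was raised (median -0.64). Rad17 rose by 0.40, or by 0.18 when scaled by library size alone (edgeR adjusted p = 0.0419). Clspn, an adaptor of the checkpoint kinase, fell by 1.23, H2afx, the histone that marks breaks, by 1.08, Chek1 by 0.89 and Wee1 by 0.87, and Rpa1 had -0.03 (edgeR adjusted p = 0.66).

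**Figure D3:**
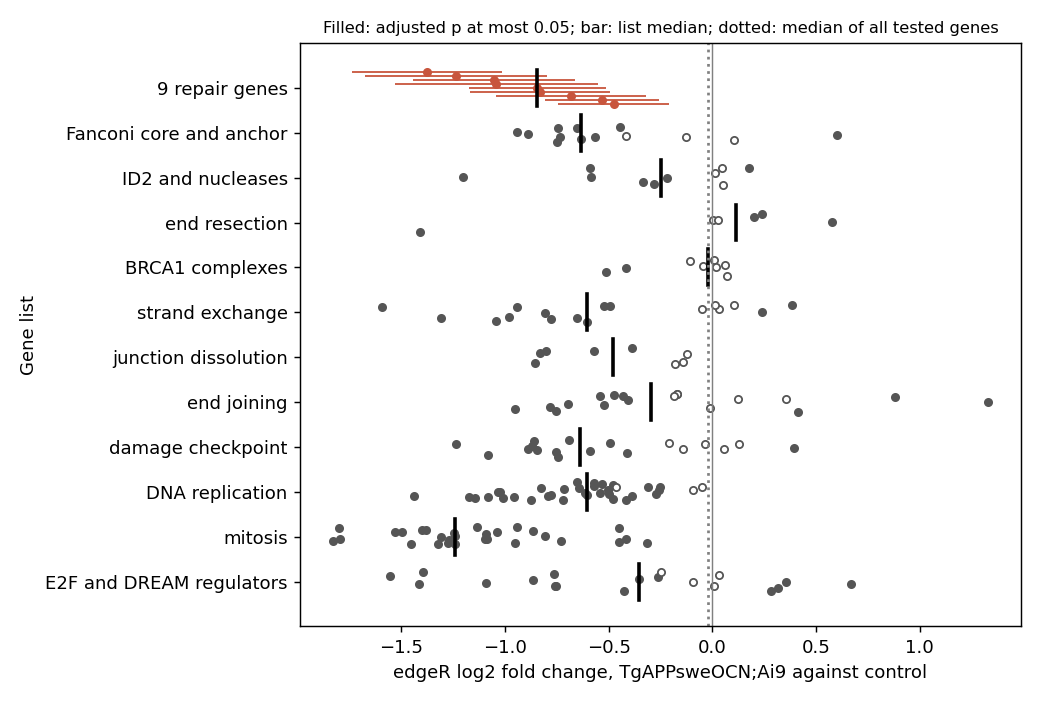
EdgeR log2 fold change (x axis, APPswe against control) of each tested gene by list (y axis), the 9 genes in red with 95% intervals and left out of the other lists. Filled points passed an adjusted p of 0.05, black bars are list medians (-0.84 for the 9 genes, -0.60 for DNA replication, -1.24 for mitosis) and the dotted line is the median of all tested genes.

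Genes of cell division were lower in the same libraries. Of 35 DNA replication genes, 32 were lowered, 91.4% beside 31.5% of all tested genes, and none was raised (median -0.60). Among them were Pole2 at -1.44, Mcm7 at -1.17, Pole at -1.14 and Mcm5 at -1.08, with Rfc1 at -0.05 (edgeR adjusted p = 0.58). All 30 mitotic genes were lowered (median -1.24), from Ccnb2 at -1.83, Plk1 at -1.80, Cenpa at -1.80 and Ccna2 at -1.53 to Smc4 at -0.31. Mki67, a marker of cycling cells, measured 22.87, 21.64 and 25.23 FPKM in the control libraries and 6.81, 9.63 and 8.30 FPKM in the APPswe libraries. Its log2 fold change was -1.27 ± 0.11 (SE, edgeR adjusted p = 1.86e-05). As for most of the 9 genes, APPswe library 2 was the highest and library 1 the lowest of its group. Cdkn1a, the inhibitor of cyclin-dependent kinases also called p21, measured 87.62, 66.60 and 72.23 FPKM in the control libraries and 212.75, 258.62 and 233.99 FPKM in the APPswe libraries (log2 fold change 1.85 ± 0.11 SE, edgeR adjusted p = 2.05e-06). Trp53, which encodes p53, had -0.30 ± 0.06 (SE, edgeR adjusted p = 0.00182), and -0.51 when scaled by library size alone.

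The mean log2 FPKM of the 9 genes was 1.25, 1.25 and 1.38 in control libraries 1 to 3 and -0.10, 0.41 and 0.10 in APPswe libraries 1 to 3. Set against the mean of the replication list in the same library, it stood at -2.51, -2.58 and -2.42 in the control libraries and at -2.90, -2.63 and -2.84 in the APPswe libraries. The groups did not overlap, and the 9 genes were lower relative to replication by 0.29 on the log2 scale. Set against the mitosis list, it stood at -2.22, -2.25 and -2.16 in the control libraries and at -2.09, -1.89 and -2.04 in the APPswe libraries, higher by 0.20 and again without overlap. These 9-gene means fell by more than the replication mean and by less than the mitosis mean. The part of cell division in the falls was not tested.

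**Figure D4:**
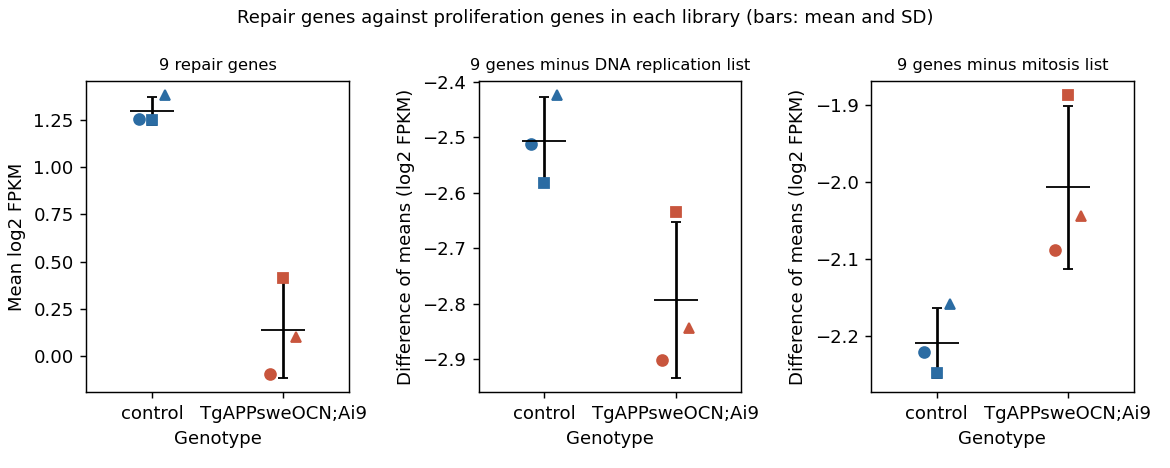
Mean log2 FPKM of the 9 genes in each library (left), and its difference from the mean of the DNA replication list (middle) and of the mitosis list (right), for control (blue) and APPswe libraries (red), with mean and SD. The middle panel moves down by 0.29 and the right panel moves up by 0.20.

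The E2F and DREAM regulators, which switch genes of the cell cycle on and off, moved in both directions. Of 19, 11 were lowered, 57.9% beside 31.5% of all tested genes, and 4 were raised (median -0.35). Foxm1 fell by 1.55, E2f2 by 1.41, E2f7 by 1.39 and Tfdp2 by 1.09 on the log2 scale. The raised genes were E2f3 with 0.67, E2f4 with 0.36, Rb1 with 0.32 and E2f5 with 0.28. Scaled by library size alone, E2f3 and E2f4 still passed, with 0.46 and 0.14, and Rb1 and E2f5 did not, with 0.10 and 0.07. Lin52 had 0.01 (edgeR adjusted p = 0.97). The raised genes Faap24, Wdr48, Sfr1, Sem1, Lig4, Rad17, E2f3, E2f4, E2f5 and Rb1, were named after their values were seen.

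Outside all lists, the genes with the pattern nearest to the mean of the 9 over the 6 libraries, by Euclidean distance of centred log2 TMM-scaled CPM, were Foxred2 (0.099), Wdhd1 (0.101), Kank2 (0.131), Hip1 (0.131) and Ankrd44 (0.133). Wdhd1, a protein of the replication fork, measured 5.06, 5.30 and 5.50 FPKM in the control libraries and 1.98, 2.75 and 2.31 FPKM in the APPswe libraries. As these genes were chosen for their nearness over the same libraries, their order of libraries is no further result.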

How the data were processed

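RNA-seq was measured in 3 OCN-Cre;Ai9 (control) and 3 TgAPPsweOCN;Ai9 libraries. The authors sequenced on a DNBSEQ platform, accepted RNA integrity numbers above 2, and mapped reads with HISAT2. The submitters' processing notes name HISAT2 2.0.4, Bowtie2 2.2.5, RSEM 1.2.12, DESeq2 1.4.5 and mm10. The authors deposited estimated counts, fractional for 13.3% to 14.4% of genes, where reads were split between similar sequences, and FPKM values rounded to 2 decimals. A further deposited table of log2 ratios and p-values was not used.

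Estimated counts were rounded and compared with edgeR 4.0.16 under R 4.3.3 (TMM after filterByExpr, quasi-likelihood test, Benjamini-Hochberg adjustment, no replicate block). CPM used TMM-adjusted library sizes, except for the detection floor. The biological coefficient of variation was 9.85%. Between libraries of 1 genotype, squared differences were 2.44 to 5.87 times those of sampling noise, at the median over tested genes. The interval of detectable counts covers counting error only. Ratios were compared by exact two-sided permutation tests (scipy 1.17.1). The procedure was also run on simulated counts in which a small share of genes was changed, in either direction. That setting does not cover data in which most tested genes are called, as here. Alternatives were DESeq2 1.42.0, RLE size factors, library size only, 2 filters, unrounded counts, limma 3.58.1 on log2(FPKM + 1) or log2(FPKM + 0.1), a replicate block, each library left out and, added after seeing the data, a gene length trend.

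The 9 genes and the lists were chosen with earlier results of these data known. Named from each other list were up to 4 passing genes with the largest change and the one with the smallest change, beside 4 check genes and the 5 nearest patterns. Some genes of the lists are not reported here.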

Additional observations from a re-analysis of the deposited data

How the results depend on the processing

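All 9 genes stayed lowered, and none raised, under each of the 17 alternatives, and the largest adjusted p was 0.0314. The count of genes down-regulated at a log2 fold change of -1 was less stable: 0 with limma on log2(FPKM + 1), a scale that understates changes of low genes, 6 with library size only, 3 with the gene length trend, and 2 to 4 when a library was left out, with 2 without replicate 1 of TgAPPsweOCN;Ai9. Of the other repair genes, 49 to 69 were lowered, 49 to 52 when a library was left out. The number raised was 6 with library size only and 9 to 11 otherwise. Of the replication and mitosis genes, 58 to 64 were lowered, 58 to 62 when a library was left out, and none was raised. When a library was left out, the log2 ratio difference ranged from -0.35 to 0.02 for Brca2 to Palb2, reversing without TgAPPsweOCN;Ai9 replicate 1 (0.017), and from -0.29 to 0.28 for Fanca to Fancd2, reversing without TgAPPsweOCN;Ai9 replicate 3 (-0.29). It ranged from 0.49 to 0.60 for Blm to Exo1, from 0.20 to 0.34 for Brca1 to Bard1 and from 0.09 to 0.53 for Fancd2 to Fanci. The difference from the replication mean ranged from -0.37 to -0.23 and that from the mitosis mean from 0.14 to 0.24. The cause of the other shifts was not tested. With the replicate number as a block, 9 genes were lowered and 4 down-regulated. Same-numbered libraries correlated at 0.013, 0.0066 and 0.14 in their deviations from the group means, and not every library correlated best with its own number. The 0.14, between the libraries numbered 3, was the highest, and libraries of different numbers correlated at -0.052 to 0.025. With 3 libraries a genotype these values cannot settle whether the numbers pair the libraries. The precision of each fall is limited by 3 libraries a genotype and 44 to 447 counts a gene.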
